A study of Rattus norvegicus with 14 samples.

Results

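Divergent pairs of transcription start sites (TSSs) were examined, in which a TSS on the minus strand lies upstream of a TSS on the plus strand of the same chromosome and at most 1000 bp separate the end of the first from the start of the second. The rule used positions alone and found 478 pairs, made of 777 of the 4993 TSSs in the table (15.6%). Pairs that shared a TSS were joined, which gave 321 loci. On each side of a locus, the TSS with the highest mean level in sciatic nerve was taken as the lead TSS of that side.

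The study mapped transcript 5′ ends with Tn5Prime, an RNA-seq protocol that reads the first bases of capped transcripts, in 14 libraries of rat Schwann cells, the myelin-forming glia of peripheral nerve. Sciatic nerve of adult rats aged 6 to 9 months gave 2 libraries, from independent nerves. Primary rat Schwann cells were grown in medium with 5% FBS, and 3 libraries came from control cells and 3 from cells given 250 µM CPT-cAMP for 3 days, an agent that raises cAMP signalling and drives Schwann cell differentiation. S16 cells are an immortalized rat Schwann cell line and were grown in medium with 10% FBS. They gave 2 libraries of the unmodified parental line and 4 of ΔSOX10 lines. In the latter, the first coding exon of Sox10 was cut by CRISPR-Cas9. SOX10 is the transcription factor that Schwann cells need at every stage. Each ΔSOX10 library was made from its own clonal line, named 1-1, 1-2, 2-1 and 2-2, so that the group is a set of single clones. The clones came from 2 guide RNAs. They went through puromycin selection and single-cell sorting, which is not stated for the parental line, so these steps and the loss of SOX10 cannot be told apart.

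At a divergent promoter, RNA polymerase II starts transcription outward in both directions from 1 open stretch of DNA. Either both transcripts belong to genes that sit head to head, or 1 of them is an upstream antisense RNA that is usually short-lived and not annotated. Head-to-head genes are common in mammals, often lie in CpG islands and often encode housekeeping proteins of metabolism, translation and DNA repair, so that a question for any regulator is whether both directions follow it or only 1.

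Values are RPM, the reads of a TSS scaled to the size of the whole library, and fold changes are differences of log2(RPM + 1). Because each read is a 5′ end, RPM does not grow with transcript length. Libraries held from 29895599 to 79940274 reads with a median of 41787315, so that 3 reads equal 0.0375 to 0.1 RPM. Replicates correlated with r of 0.958 to 0.97 in cultured cells and 0.841 in nerve. The Sox10 TSS was at 90.7 and 77.5 RPM in the parental libraries and at 0.0255, 0.0254, 0 and 0.114 RPM in clones 1-1, 1-2, 2-1 and 2-2. The summed level of 9 of 10 Schwann cell markers ran from 5949 to 6154 RPM in control cells and from 10560 to 12220 RPM with cAMP, and from 10200 to 10340 RPM in parental and 145.6 to 396.4 RPM in ΔSOX10 libraries. The fibroblast markers in the table, Col1a1 and Pdgfra (2 of 7), summed to 803 to 909 RPM in control cells and 369.7 to 466 RPM with cAMP, and to 2255 to 2829 RPM in parental and 2971 to 5302 RPM in ΔSOX10 libraries. The mural marker Pdgfrb (1 of 7 endothelial and mural markers) was at 0.779 to 1.91 RPM in control cells and 22.4 to 29.6 RPM with cAMP. The immune marker Csf1r (1 of 6) was at 0 in every primary cell and parental library and at most 0.966 RPM in the clones. No neuron marker (0 of 5) and no adipocyte or muscle marker (0 of 4) is among the TSSs of the table, so that these cells were not assessed. In nerve the Schwann cell markers summed to 72480 to 73560 RPM and the fibroblast markers to 134 to 138 RPM. The part of these shifts in the results below was not tested. In the bulk libraries of nerve and primary cells, fewer cells of a type and less RNA per cell cannot be told apart. S16 cells are a cell line, and each clone was grown from a single sorted cell. There the marker sums are levels of RNA in the line and do not count cell types.

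The table holds only TSSs of nerve whose H3K4me3 peak, a mark of active promoters, overlaps a SOX10 peak, and both leads of all 321 loci were listed with the same peaks. Both leads lay inside the SOX10 peak at 136 loci (42.4%), the minus lead alone at 61, the plus lead alone at 68 and neither at 56. Counted singly, 58.8% of the member TSSs and 50.4% of the other TSSs lay inside a SOX10 peak. At 227 loci (70.7%) both leads carried a gene symbol, never the same gene on both sides. At 92 loci (28.7%) 1 lead had no symbol, and at 2 loci neither had. TSSs without a symbol were 98 of the members (12.6%) and 197 of the other TSSs (4.67%).

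The gap between the leads had a median of 172 bp, with quartiles of 61 and 339 bp. It was below 100 bp at 117 loci (36.4%), from 100 bp to below 300 bp at 108 (33.6%), from 300 bp to below 600 bp at 62 (19.3%) and 600 bp or more at 34 (10.6%). Head-to-head genes had a median gap of 208 bp, and loci with 1 unnamed lead 73 bp. The closest leads were Eme2 and Mrps34, the latter a protein of the mitochondrial ribosome, with 1 bp, followed by RGD1562218/Gnpat with 3, an unnamed TSS and Ssbp1 with 4, and Echdc1 facing an unnamed TSS at 5 bp. The widest were Akap17a/Asmtl with 1191 bp, whose leads are joined through other TSSs between them, and an unnamed TSS facing the TSS that the table assigns to Mir207, with 990 bp. At 251 loci (78.2%) each side had 1 TSS. The loci with most members were that of Malat1, a nuclear long noncoding RNA, with 15 Malat1 TSSs and 1 unnamed TSS, and Hspb2/Cryab with 14 TSSs.

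**Figure D1:**
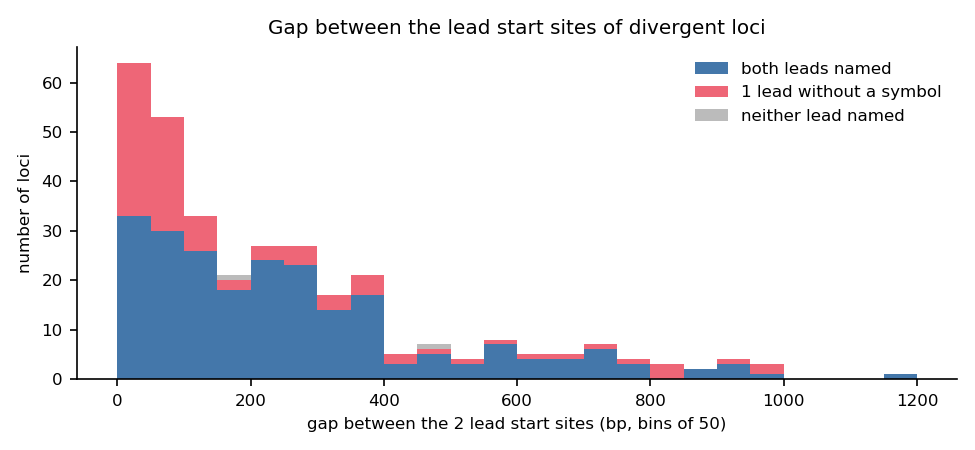
Number of divergent loci (vertical axis) by the gap between their lead TSSs in bp (horizontal axis, bins of 50 bp), stacked by whether both leads, 1 or neither carry a gene symbol. Most loci lie below 400 bp, and the loci with 1 unnamed lead crowd at the shortest gaps, with a median of 73 bp against 208 bp for named pairs.

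The files use the rn5 build, so promoter sequence was taken from RefSeq tables of the GRCr8 build by gene symbol. A promoter was found for 454 of 546 member symbols (83.2%). Of the 227 loci with named leads, 142 (62.6%) also had divergent RefSeq starts within 1000 bp, at a median distance of 255 bp, while 58 could not be matched on both sides, 14 lay further apart, 12 overlapped and 1, Cmc4/Brcc3, had its genes on different chromosomes. The sequences below fill the space between both RefSeq starts at 6 loci, printed 5′ to 3′ from the start of the minus-strand gene in rn5 to that of its partner. They are shown because both sides were called together with cAMP (Hadhb/Hadha), 1 side alone was called (Mvk/Mmab, Nmrk1/Ostf1, Gpn3/Fam216a, Nfkbib/Sirt2) or both were strong in nerve and neither was called (Ndufa2/Ik). Capitals mark letters that match any of 9 searched motifs on either strand.

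The coordinates on GRCr8 are chr6:31907501-31907800 (plus strand) for Hadhb/Hadha, chr12:47819504-47819756 (plus) for Mvk/Mmab, chr1:225475852-225476061 (minus) for Nmrk1/Ostf1, chr12:39859033-39859306 (plus) for Gpn3/Fam216a, chr18:28631885-28632024 (plus) for Ndufa2/Ik and chr1:93181388-93181471 (plus) for Nfkbib/Sirt2.
Hadhb/Hadha: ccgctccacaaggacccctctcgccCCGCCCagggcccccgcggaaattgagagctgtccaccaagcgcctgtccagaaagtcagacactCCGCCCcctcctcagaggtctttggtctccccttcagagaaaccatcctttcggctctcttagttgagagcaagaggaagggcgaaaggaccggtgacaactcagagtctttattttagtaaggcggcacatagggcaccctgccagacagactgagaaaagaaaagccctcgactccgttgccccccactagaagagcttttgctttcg
Mvk/Mmab: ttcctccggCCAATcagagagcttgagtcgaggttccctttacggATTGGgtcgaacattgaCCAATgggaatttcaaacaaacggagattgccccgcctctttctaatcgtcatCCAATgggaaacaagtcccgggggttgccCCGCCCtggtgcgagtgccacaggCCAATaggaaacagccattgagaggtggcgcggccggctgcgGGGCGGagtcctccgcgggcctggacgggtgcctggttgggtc
Nmrk1/Ostf1: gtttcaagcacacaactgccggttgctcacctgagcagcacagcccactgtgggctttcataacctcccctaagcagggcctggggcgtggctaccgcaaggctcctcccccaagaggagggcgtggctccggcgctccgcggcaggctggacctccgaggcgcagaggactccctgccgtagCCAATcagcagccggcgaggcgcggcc
Gpn3/Fam216a: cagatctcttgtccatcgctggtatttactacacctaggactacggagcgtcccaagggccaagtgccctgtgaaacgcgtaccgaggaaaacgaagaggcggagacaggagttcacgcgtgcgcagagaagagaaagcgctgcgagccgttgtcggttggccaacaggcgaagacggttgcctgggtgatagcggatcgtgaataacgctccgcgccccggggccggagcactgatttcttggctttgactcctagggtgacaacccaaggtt
Ndufa2/Ik: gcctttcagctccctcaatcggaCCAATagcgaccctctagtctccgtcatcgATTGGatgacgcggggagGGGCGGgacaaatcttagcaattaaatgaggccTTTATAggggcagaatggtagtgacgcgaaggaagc
Nfkbib/Sirt2: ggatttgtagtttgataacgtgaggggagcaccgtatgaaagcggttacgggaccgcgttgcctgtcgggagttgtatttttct

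The lengths are 300, 253, 210, 274, 140 and 84 bp in that order. The Mvk/Mmab stretch holds 5 matches to CCAAT, the letters of NF-Y sites, and 2 to GGGCGG, the GC box. Hadhb/Hadha holds 2 GC boxes, and Ndufa2/Ik 2 CCAAT matches, 1 GC box and 1 match to TATAAA. Gpn3/Fam216a and Nfkbib/Sirt2 hold none of the searched letters. Over all promoters (250 bases before to 50 after the start), the median GC content was 61% for members, 61% for the other genes of the table and 52.3% for 27457 rat promoters. CCGGAAG, an ETS motif, was found in 29.5% of member promoters, 22.9% of the other genes' and 9.22% of all. AAGATGGC, a YY1 motif, was found in 11.2%, 6.84% and 3.44%. TATAAA was found in 4.19%, 6.54% and 14.3%. The other shares lay closer to those of the table's other genes: CCAAT 37.2% and 39.4%, GGGCGG 63% and 63.5%, GCGCATGC (NRF1) 7.05% and 6.49%, CACGTG (E-box) 10.4% and 10.3%, TGACGTCA (the cAMP response element) 3.74% and 3.77%, and ACAAAG (a SOX motif) 11% and 12.4%. Matches of different motifs may overlap, and a match is only a match of letters.

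The sides of a divergent locus had nearly unrelated levels. Over the 321 loci, the correlation of log2(RPM + 1) between the minus and plus lead was 0.0335 ± 0.0267 (mean ± SD of Pearson's r, n = 14 libraries), from −0.00859 to 0.0889, where the points of a library share that library's depth. By group means it was 0.0253 in nerve, 0.0174 in control, 0.0103 in cAMP-treated, 0.0501 in parental and 0.0609 in ΔSOX10 cells. The choice of the strongest TSS per side in nerve, and of TSSs present in nerve, sets a lower bound to both sides there. Where both leads were named, r was between 0.0709 and 0.0845 across groups. Where 1 was unnamed, r was −0.317 in nerve and −0.5 in control cells, and the unnamed side was the weaker in the median of every group, with 3.69 against 12.16 RPM in nerve and 1.435 against 24.5 RPM in control cells. The unnamed lead lay on either strand, and the minus lead was the stronger at 51 of these 92 loci in nerve. Such a mix of strong-weak and weak-strong loci can by itself lower r, here and over all 321 loci. As pairs of neighbouring TSSs of other kinds, same-strand leads had r of −0.109 (n = 583) and convergent leads −0.263 (n = 40) in nerve. Convergent leads were chosen in the same way as divergent ones. Same-strand leads were the strongest TSS of a group in nerve and its strongest neighbour. That choice can lower r, so the same-strand r is not like for like.

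In nerve, 105 of 321 loci (32.7%) had sides within 2-fold of each other, with 1 RPM added to each, and 57 (17.8%) had sides over 10-fold apart. In the cultured groups 79 to 95 loci were within 2-fold and 95 to 107 over 10-fold. At 186 loci (57.9%) the same side was ahead in all 14 libraries, the plus side at 98 and the minus side at 88, and at 135 (42.1%) this did not hold in at least 1 library. Both sides exceeded 1 RPM on average at all 321 loci in nerve, where the table's TSSs were called, at 262 (81.6%) in control, 266 (82.9%) in cAMP-treated, 233 (72.6%) in parental and 235 (73.2%) in ΔSOX10 cells.

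**Figure D2:**
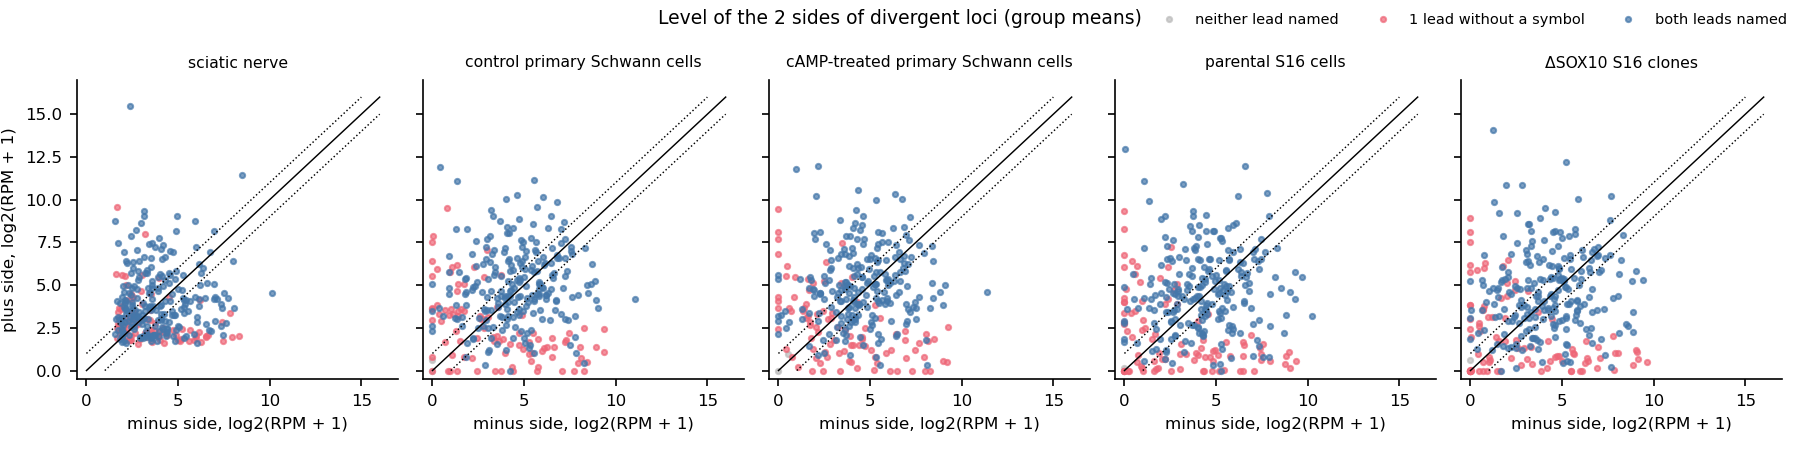
Mean level of the plus lead (vertical axis) against the minus lead (horizontal axis), both as log2(RPM + 1), for the 321 divergent loci in each of the 5 groups. Solid lines mark equal levels, dotted lines a 2-fold difference, red points loci with 1 unnamed lead and grey points the 2 loci with neither lead named. The clouds follow no diagonal, with r from 0.0103 to 0.0609.

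The loci strongest on both sides in nerve were, after Hspb2/Cryab, pairs of housekeeping genes. Isca2, which assembles mitochondrial iron-sulfur proteins, was at 129 and 117 RPM in the nerve libraries, and Npc2, which moves cholesterol out of lysosomes, at 269 and 313 RPM. Prdx5, a peroxiredoxin, was at 67.2 and 143 RPM facing Trmt112, a methyltransferase cofactor, at 118 and 129 RPM. Ndufa2, a subunit of respiratory complex I, stood at 229 and 285 RPM, 56 bp from Ik, a splicing factor, at 70.8 and 98.6 RPM, and neither was called in any comparison. Bud31, another splicing factor, had 52.9 and 88 RPM against 71.4 and 76.9 RPM of Pdap1, so that the nerve libraries of both sides overlapped.

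The most unequal locus in nerve was Fads2/Fth1, with a gap of 132 bp. Fads2, a fatty acid desaturase, had 0.401 and 7.92 RPM, and Fth1, the ferritin heavy chain, 42522 and 47480 RPM, a ratio of 10814. The 4 next were an unnamed TSS facing Dynlrb1, a dynein light chain (ratio 359), Sphk2, a sphingosine kinase, facing Rpl18 (215), Plekhb1 facing an unnamed TSS (103) and Vps52 facing Rps18 (85.1). Fth1 and ribosomal protein genes have near-identical processed copies in the genome, so that their levels are uncertain where reads could fall on a copy.

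The first comparison asked which divergent promoters respond when primary Schwann cells are given CPT-cAMP. Of 281 loci with both leads tested, 87 had 1 side called, 6 both sides in the same direction and 2 both sides in opposite directions, and 186 had none. A call on 1 side does not show that the sides differed, and 22 of these 87 passed the test of that difference described below. Of the 777 members 706 passed the filter on low values (above 1 RPM in at least 2 of the 6 libraries), 19 of them above 1 RPM in only 1 group, and 71 did not. Of these 706, 59 were higher (8.36%) and 68 lower (9.63%) in cAMP-treated cells by limma (adjusted p under 0.05 over all 4119 TSSs tested), 18% in all. Among all TSSs tested, 12.9% were higher and 11% lower, 23.8% in all. The groups did not overlap at 216 members (30.6%), against 36.6% of all TSSs. The members that were higher had a median change of 1.41 and those lower a median size of 0.961 on the log2 scale, and the median change was 0.003 over members and 0.02 over all TSSs. Leaving out single libraries gave 91 to 101 called members.

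Across the 281 loci, r between the log2 fold changes of both sides was 0.141, 49.1% had the same sign and the median difference was 0.527 in size. The points share the same 6 libraries. Same-strand leads within 1000 bp had r of 0.569 with 63.3% of the same sign (n = 381), and convergent leads r of 0.552 (n = 19). Of 47 tested partners of leads that were higher, 4 were higher (8.51%, against 8.36% of members and 12.9% of all TSSs), 2 lower and 41 not called. Their median change was −0.02. Of 56 tested partners of lower leads, 8 were lower (14.3%, against 9.63% of members and 11% of all TSSs), 2 higher and 46 not called. Their median was −0.21. A locus called alike on both sides enters with each of its leads, so the 4 are 2 loci and the 8 are 4 loci. The counts depend on a threshold on each side, so the difference between sides was also tested within each library with limma over the 281 loci. It was called at 29 loci (10.3%), 26 of them with named leads, at 16 with the plus and at 13 with the minus side more positive, and its size ran from 0.665 to 3.16 with a median of 1.62 on the log2 scale. Of the 29, 22 had 1 side called (14 higher, 8 lower), 2 opposite sides, 1 both sides lower and 4 neither. Without cAMP 3 the count was 14 and without cAMP 1 it was 17. It was 7 of 101 loci (6.93%) below 100 bp and 5 of 26 (19.2%) at 600 bp or more.

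**Figure D3:**
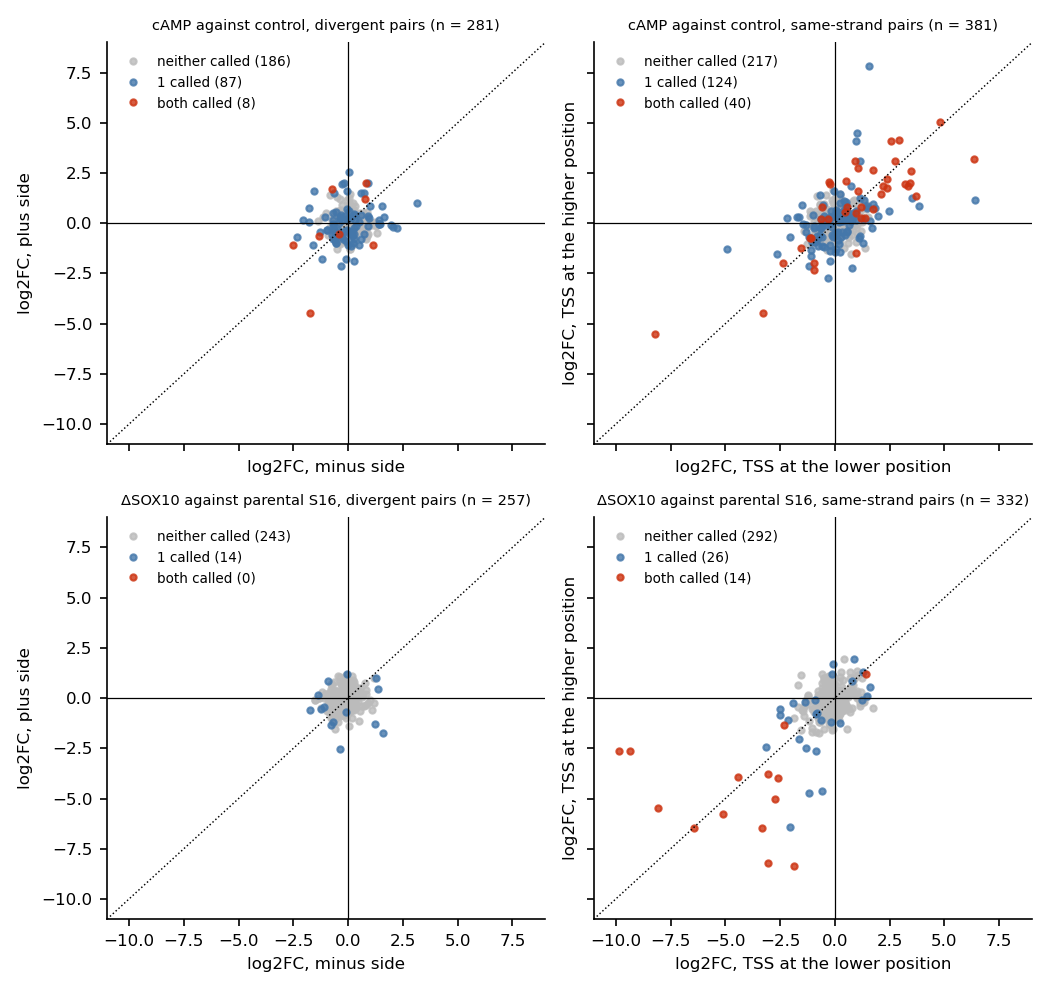
Log2 fold change of both TSSs of a pair, for cAMP against control (top) and ΔSOX10 against parental S16 cells (bottom). Left panels plot the plus against the minus lead of divergent loci, and right panels the 2 leads of same-strand neighbours, coloured by how many of them were called. Divergent loci scatter along both axes rather than the dotted diagonal (8 with both called of 281, and 0 of 257), and same-strand pairs extend along the diagonal.

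Both sides were lower with cAMP at Hspb2/Cryab, which encodes a pair of small heat shock proteins. Cryab had 2293, 2224 and 2279 RPM in control cells and 115, 95.6 and 98.9 RPM with cAMP. Hspb2 had 47.4, 49.4 and 38.7 RPM in control cells and 17.2, 7.58 and 16.2 RPM with cAMP. The groups were apart on both sides, by 22-fold for Cryab (log2 fold change −4.45 ± 0.08 SE, adjusted p = 3.78e-20) and 3.31-fold for Hspb2 (−1.73 ± 0.30, adjusted p = 0.000129). The sides differed by −2.72 ± 0.25 (adjusted p = 8.37e-12), so that Cryab fell more than Hspb2. The leads lie at chr8:53774967-53775160 and chr8:53776063-53776067 on rn5, 903 bp apart, with 4 Hspb2 and 10 Cryab TSSs in the locus. Not every Cryab TSS moved the same way. The TSS at chr8:53775829-53775839 went from a mean of 4.30 to 33.4 RPM (log2 fold change 3.245, adjusted p = 0.000172), and that at chr8:53775855-53775863 from 0.726 to 13.4 RPM (3.15, adjusted p = 0.000273), while chr8:53776016-53776019 and chr8:53776091-53776093 fell from 52.8 to 5.06 RPM (adjusted p = 2.14e-07) and from 38.3 to 7.58 RPM (adjusted p = 3.9e-05).

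The other 3 loci lower on both sides were Thap2/Zfc3h1 (leads at chr7:58374290-58374475 and chr7:58374831-58374952 on rn5), Grk4/Nop14 (chr14:82026920-82026978 and chr14:82027566-82027760) and Hadhb/Hadha (chr6:37400151-37400217 and chr6:37400443-37400522). Thap2, which encodes a THAP-domain protein, had 22.5, 14.6 and 13.2 RPM in control cells and 2.28, 0.749 and 3.71 RPM with cAMP, and Zfc3h1, a zinc finger protein of nuclear RNA decay, 76.8, 88.3 and 107 against 31.6, 37.3 and 63.6 RPM. Both were without overlap, at 7.48-fold (−2.53 ± 0.48, adjusted p = 0.000388) and 2.05-fold lower (−1.07 ± 0.22, adjusted p = 0.000786), and the difference between sides was not called (1.46 ± 0.50, adjusted p = 0.05). Grk4, a kinase of G protein-coupled receptors, had 46.2, 44.7 and 37.1 RPM in control cells and 16.3, 16.1 and 16.4 RPM with cAMP (2.62-fold lower, adjusted p = 0.000247). Nop14, a factor of small ribosomal subunit assembly 588 bp away, had 67.9, 70.2 and 66 against 51.3, 34.8 and 48.3 RPM (1.52-fold lower, adjusted p = 0.0202). The Nop14 call was lost without any 1 of the control libraries or cAMP 2. Another Grk4 TSS at chr14:82027314-82027362, nearer to Nop14, went from a mean of 14.1 to 12.6 RPM. It was not called (−0.06, limma adjusted p = 0.94).

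Hadhb and Hadha encode both subunits of the mitochondrial trifunctional protein, which carries out steps of fatty acid β-oxidation, so here the head-to-head genes make parts of 1 enzyme. Hadhb had 106, 131 and 145 RPM in control cells and 91.5, 90.7 and 98.3 RPM with cAMP, and Hadha 186, 159 and 180 against 108, 126 and 124 RPM. No libraries of the groups overlapped on either side. The changes were small, −0.43 ± 0.14 (adjusted p = 0.0315) and −0.55 ± 0.12 (adjusted p = 0.0021), and differed by −0.12 ± 0.23 (adjusted p = 0.772). The Hadhb call was lost without control 2, control 3 or any 1 of the cAMP libraries, with adjusted p from 0.0567 to 0.167.

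Both sides were higher at Tbc1d17/Akt1s1 (chr1:101909878-101909924 and chr1:101910214-101910275 on rn5) and Atad3a/LOC102547290 (chr5:176685296-176685431 and chr5:176685497-176685576). Tbc1d17, a Rab GTPase-activating protein, had 58.7, 66.9 and 67.3 RPM in control cells and 99.4, 113 and 114 RPM with cAMP. Akt1s1, a regulatory component of mTORC1, 290 bp away had 27.6, 24.1 and 29.3 against 67.1, 58.8 and 61.6 RPM. Without overlap, they were 1.69-fold (0.75 ± 0.15, adjusted p = 0.000619) and 2.32-fold higher (1.18 ± 0.20, adjusted p = 0.000107), and their sides did not pass the test of a difference (0.43 ± 0.30, adjusted p = 0.371). Atad3a, a mitochondrial membrane ATPase, had 38.2, 36.7 and 27.8 against 57.4, 65.3 and 57.8 RPM (0.81 ± 0.20, adjusted p = 0.00434), and LOC102547290, 66 bp away, 0.84, 7.44 and 2.72 against 8.53, 17.6 and 20.8 RPM (2.02 ± 0.53, adjusted p = 0.00716). The call of LOC102547290 was lost without cAMP 2 or cAMP 3.

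At 2 loci the sides were called in opposite directions, Abhd14a/Abhd14b (chr8:114513601-114513692 and chr8:114514596-114514639 on rn5) and Tspan31/A730063M14Rik (chr7:70533215-70533316 and chr7:70533370-70533470). Abhd14a had 8.25, 17.9 and 28.5 RPM in control cells and 35.8, 49.1 and 29 RPM with cAMP, while Abhd14b, which encodes a related α/β-hydrolase 904 bp away, had 85.5, 57.2 and 72.5 against 31.9, 38.7 and 27.5 RPM. Abhd14a was 2.08-fold higher (1.141 ± 0.34, adjusted p = 0.0169) and Abhd14b 2.19-fold lower (−1.10 ± 0.21, adjusted p = 0.000315), and no libraries overlapped, although 28.5 RPM in control 3 and 29 RPM in cAMP 3 nearly met at Abhd14a. This gave a difference of −2.25 ± 0.42 between sides (adjusted p = 0.000119). The call of Abhd14a was lost without control 1, cAMP 1 or cAMP 2. Tspan31, a tetraspanin, had 236, 216 and 199 RPM in control cells and 110, 130 and 159 RPM with cAMP, and A730063M14Rik, 54 bp away, 1.4, 2.71 and 4.55 against 14.3, 9.02 and 10.3 RPM. Tspan31 was 1.63-fold lower (−0.71 ± 0.13, adjusted p = 0.000303) and A730063M14Rik 3.89-fold higher (1.71 ± 0.48, adjusted p = 0.011), with a difference of 2.43 ± 0.41 (adjusted p = 3.31e-05). Without cAMP 1 the adjusted p of A730063M14Rik was 0.0653.

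**Figure D4:**
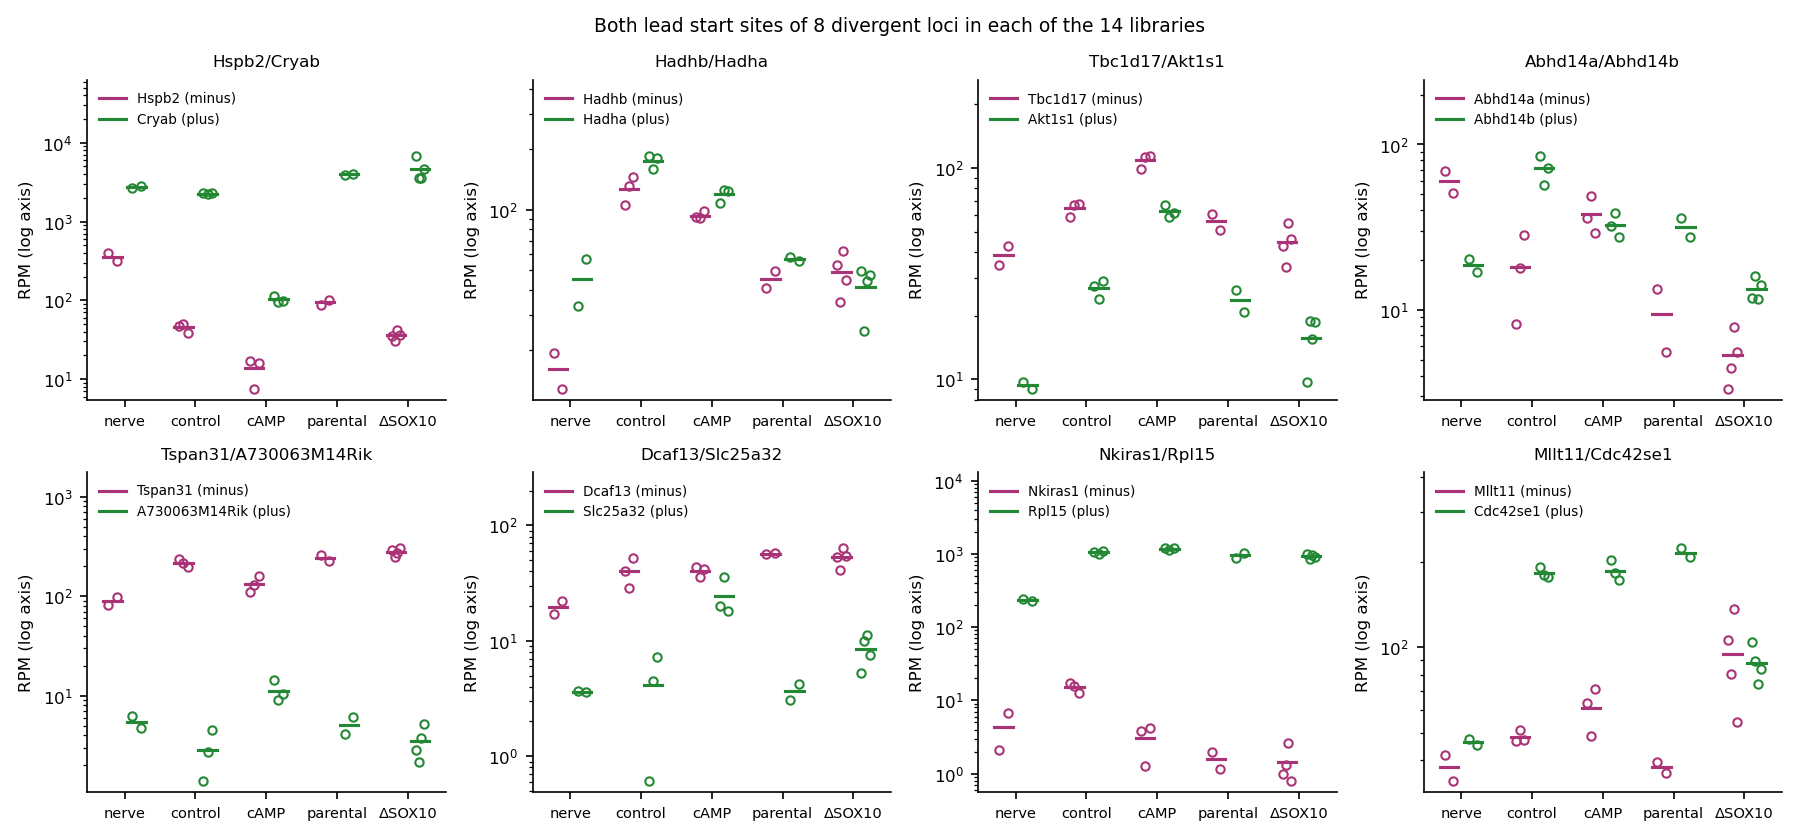
RPM (log axis) of the minus lead (purple) and plus lead (green) of 8 divergent loci in the 14 libraries, by group. Circles are libraries and bars are group means. At Hspb2/Cryab both sides drop with cAMP, at Abhd14a/Abhd14b they cross, and at Nkiras1/Rpl15 only the minus side drops while Rpl15 stays between 984 and 1207 RPM in primary cells.

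Among loci with at least 10 RPM on a side and 1 side called, the largest differences toward the plus side were at Zbtb38, Dcaf13/Slc25a32, Hspa13 and Nkiras1/Rpl15. Slc25a32, a mitochondrial folate carrier, had 0.613, 4.46 and 7.25 RPM in control cells and 19.9, 35.9 and 18.1 RPM with cAMP, without overlap (5.99-fold, 2.55 ± 0.51, adjusted p = 0.000641). Its partner Dcaf13, a factor of ribosome assembly 166 bp away, had 40.1, 28.8 and 52.6 against 43.6, 35.9 and 41.7 RPM, and its change of 0.03 ± 0.23 was not called (adjusted p = 0.95). The sides differed by 2.52 ± 0.54 (adjusted p = 0.000991). Nkiras1, a Ras-like inhibitor of NF-κB signalling, had 17.3, 15.9 and 12.6 against 3.87, 1.27 and 4.17 RPM (4.93-fold lower, −2.07 ± 0.46, adjusted p = 0.00165). Rpl15, a ribosomal protein 86 bp away, had 1059, 984 and 1111 against 1186, 1129 and 1207 RPM, which was not called (0.16 ± 0.07, adjusted p = 0.0838). The difference was 2.23 ± 0.28 (adjusted p = 2.64e-08).

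At both loci with an unnamed partner the counts were low. The TSS facing Zbtb38, a methyl-DNA binding zinc finger protein, had 0.315, 7.99 and 5.21 RPM in control cells and 14.1, 12 and 9.43 RPM with cAMP (1.601 ± 0.57, adjusted p = 0.0475, and 0.0605 to 0.259 without control 1, control 3 or any 1 of the cAMP libraries), while Zbtb38 had 3.66, 8.02 and 6.78 against 2.74, 0.178 and 1.91 RPM and was not called (−1.56, adjusted p = 0.0524). The sides differed by 3.16 ± 0.78 (adjusted p = 0.00447), and both were at 0 in every S16 library. The TSS facing Hspa13, an Hsp70 family member, had 0, 0.0306 and 7.91 RPM in control cells and 5.3, 9.18 and 7.51 RPM with cAMP, so that the groups overlapped. Only 1 control library was above 1 RPM, and the TSS was thus tested through its cAMP libraries. This favours a difference, so no p-value is given for it. The call of the TSS was lost without control 1, control 2 or any 1 of the cAMP libraries. The difference of the sides, 2.24, was called, and that call was lost without control 2 or any 1 of the cAMP libraries.

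Toward the minus side, the largest differences were at Hspb2/Cryab, Aamdc/Rsf1, Abhd14a/Abhd14b, Nmrk1/Ostf1 and Gpn3/Fam216a, in that order. Aamdc had 24.7, 13.2 and 15.7 RPM in control cells and 91.3, 89.2 and 76.2 RPM with cAMP, 4.79-fold higher without overlap (2.24 ± 0.23, adjusted p = 1.47e-07). Rsf1, a subunit of a chromatin remodeller 376 bp away, had 21.7, 28.3 and 22.6 against 21.2, 19 and 21.7 RPM and was not called (−0.21 ± 0.26, adjusted p = 0.641). The difference was −2.45 ± 0.42 (adjusted p = 3.31e-05). Nmrk1, a nicotinamide riboside kinase of NAD synthesis, had 2.01, 0.0153 and 0.661 against 5.12, 4.58 and 9.24 RPM (2.03 ± 0.57). It was tested through its cAMP libraries, as 1 control library alone was above 1 RPM, which favours a difference. No p-value is therefore given for Nmrk1 or for the difference of the sides. The partner Ostf1, 65 bp away, had 89.2, 117 and 99.6 against 83.7, 78 and 106 RPM (adjusted p = 0.43). The call of the difference (−2.23 ± 0.54) was lost without cAMP 3. The call of Nmrk1 was lost without cAMP 3 or control 2, and edgeR did not call Nmrk1. The lead TSS of Fam216a had 20.3, 22 and 17.6 against 0.888, 9.79 and 7.72 RPM (−1.89 ± 0.51, adjusted p = 0.00852), and Gpn3, a GTPase of RNA polymerase II import, 30.7, 27.9 and 21.8 against 32.2, 33.5 and 32.4 RPM (adjusted p = 0.427). Another Fam216a TSS at chr12:41560169-41560211, nearer to Gpn3, went from a mean of 21.1 to 17.7 RPM. It was not called (−0.24, limma adjusted p = 0.62). The difference of −2.18 ± 0.56 (adjusted p = 0.00643) was lost without cAMP 1 (adjusted p = 0.118), and neither edgeR nor DESeq2 called Fam216a.

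At strong housekeeping loci the calls rested on changes below 1 on the log2 scale. Npc2 had 526, 530 and 553 RPM in control cells and 334, 327 and 325 RPM with cAMP (−0.70, adjusted p = 6.67e-07), facing Isca2, which was not called (−0.26, adjusted p = 0.258), and the sides did not pass the test of a difference (−0.44, adjusted p = 0.146). Rps18 had 2226, 2201 and 2182 against 3798, 4129 and 4041 RPM (0.86 ± 0.05, adjusted p = 7.15e-12). Rpl18 was higher by 0.30 (adjusted p = 0.000435), and Trmt112 fell by 0.36 (adjusted p = 0.0108), a call lost without control 2 (adjusted p = 0.0905) or cAMP 2 (adjusted p = 0.0513).

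**Figure D5:**
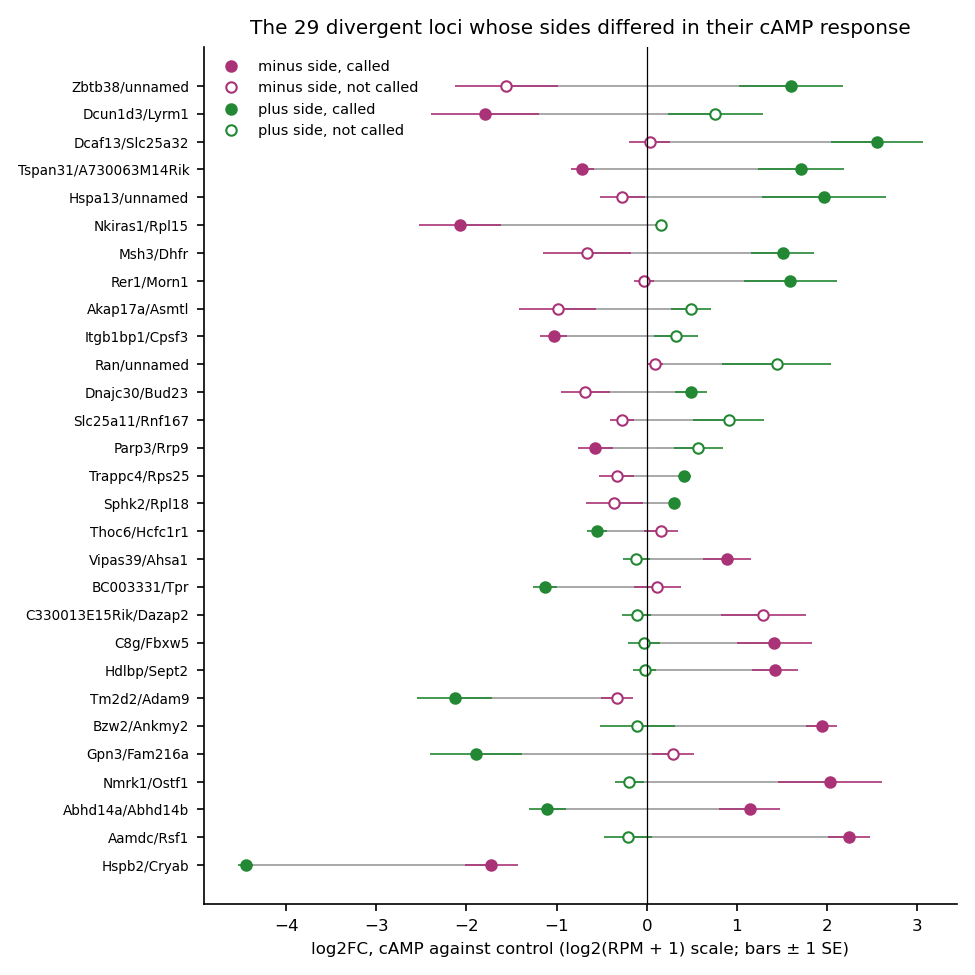
Log2 fold change with cAMP of the minus lead (purple) and plus lead (green) at the 29 loci whose sides differed, with bars of 1 SE and filled points for called TSSs. Loci are ordered by the difference between sides, from Zbtb38 (3.16) at the top to Hspb2/Cryab (−2.72) at the bottom, and in 22 of the 29 exactly 1 of the points is filled.

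The second comparison asked which divergent promoters depend on SOX10 in S16 cells. No locus had both sides called: of 257 loci with both leads tested, 14 had 1 side called and 243 none by limma. At an unadjusted p under 0.05, both sides passed at 5 loci, and DESeq2 on reads recovered from RPM called 1 locus higher on both sides (Fads2/Fth1, named after its value was seen) and 3 in opposite directions, and edgeR 0 and 1. Of the 777 members 674 were tested, 27 of them above 1 RPM in only 1 group (8 of those called), and 103 were not. Among the 674, 7 were higher (1.04%) and 20 lower (2.97%) in ΔSOX10 cells, 4.01% in all, while 1.65% and 6.55% of the 3875 TSSs tested were higher and lower, 8.21% in all. The groups did not overlap at 24.8% of members and 29.4% of all TSSs. The median change was −0.14 over members and −0.18 over all TSSs, and −0.05 after TMM scaling, under which 15 members were higher and 16 lower. Called members were 10 without parental 1 and 6 without parental 2, and the lone parental library left was then taken to vary like the clones. Over the 257 loci r between the sides' changes was 0.0965 with 59.9% of the same sign, while same-strand leads had r of 0.61 (n = 332). The shift of the median can by itself raise the share of the same sign, which was not counted after TMM scaling. Of 10 tested partners of lower leads none was lower, where 2.97% of members and 6.55% of all TSSs were lower. So few partners cannot show whether they follow their lead. Whether these correlations differ between kinds of pairs was not tested.

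The test of a difference between sides called 3 loci (1.17%), with a single one left without parental 2. They were Mllt11/Cdc42se1 (chr2:215899015-215899113 and chr2:215899549-215899663 on rn5), Cmc4/Brcc3 (chr18:458229-458407 and chr18:458999-459115) and Hspb2/Cryab. Cdc42se1, an effector of the GTPase Cdc42, had 224 and 208 RPM in parental cells and 104, 89.5, 74.2 and 83.9 RPM in clones 1-1, 1-2, 2-1 and 2-2, 2.46-fold lower without overlap (−1.30 ± 0.19, adjusted p = 0.00318). Its partner Mllt11, 436 bp away, had 39.5 and 36.1 against 106, 80.4, 137 and 54.3 RPM, also without overlap, and was not called (1.22 ± 0.34, adjusted p = 0.0638). The difference was −2.52 ± 0.37 (adjusted p = 1.59e-05). Cmc4, a small mitochondrial protein, had 8.27 and 4.8 against 24.2, 22.3, 23.1 and 15.6 RPM (3.26-fold higher, 1.59 ± 0.34, adjusted p = 0.0213), a call lost without parental 2, clone 1-2 or clone 2-1. Brcc3, a deubiquitinase of DNA repair complexes 592 bp away, had 21.5 and 18.1 against 3.97, 5.72, 2.87 and 9.83 RPM and missed the threshold (−1.76 ± 0.46, adjusted p = 0.0513). The difference was −3.35 ± 0.60 (adjusted p = 0.000232), and without parental 2 its adjusted p was 0.0998. This is the locus whose genes RefSeq places on different chromosomes of GRCr8. Hspb2 had 86.3 and 102 against 35.5, 30.3, 41.4 and 36.7 RPM, 2.62-fold lower (−1.37 ± 0.22, adjusted p = 0.00433), while Cryab had 3930 and 4010 against 6860, 3540, 3545 and 4644 RPM and overlapped (0.17 ± 0.28, adjusted p = 0.798). The difference was 1.54 ± 0.24 (adjusted p = 3.51e-05), with an adjusted p of 0.0998 without parental 2, where that of Hspb2 was 0.112. The lead TSS of Abhd14b was also lower, with 35.9 and 27.7 against 11.8, 16, 11.6 and 14 RPM (−1.19 ± 0.29, adjusted p = 0.0374), and Abhd14a was not called (adjusted p = 0.496). The other Abhd14b TSS had means of 2.5 and 2.9 RPM and was not called (limma adjusted p = 0.92). The Abhd14b call was lost after TMM scaling and without parental 1, parental 2, clone 1-1, clone 1-2 or clone 2-1 (adjusted p from 0.0515 to 0.479).

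Of 34 myelin and Schwann cell genes in the table, 7 were leads of divergent loci, at 6 loci. With cAMP 4 of the 7 were higher and 2 lower, where 12.9% of all TSSs were higher and 11% lower, with a median change of 0.361 against 0.02 over all TSSs. In ΔSOX10 cells 5 of 7 were lower and 0 higher, where 6.55% of all TSSs were lower and 1.65% higher, with a median of −2.32 against −0.18 over all TSSs. At 4 of these 5, and at 1 of the 4 that were higher with cAMP, every library of the low group was at or under 1 RPM. These were tested only through the group where they were high, which favours a difference, and no p-value is given for them. Of the tested partners of these leads, 0 of 4 were higher and 2 lower with cAMP, both of the latter being Hspb2 and Cryab as partners of each other.

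Mag (chr1:90514460-90514627 on rn5), which encodes myelin-associated glycoprotein, had 2.44 and 5.71 RPM in nerve, 0 in every control library and 1.49, 3.92 and 8.89 RPM with cAMP. It was without overlap and at least 81.7-fold higher against a floor of 3 reads in the shallowest control library. Without cAMP 3 this bound was 46.4-fold, and the limma call was lost. It had 10.2 and 17.7 RPM in parental cells and 1 read over the clones, a ratio of 2060 (95% exact counting interval 369 to 81300). The unnamed TSS 338 bp away had 3.04 and 9.12 RPM in nerve, 0 in control and 3.16, 0 and 0.22 RPM with cAMP and was not tested.

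Plekhb1 (chr1:171881359-171881458 on rn5), a pleckstrin homology domain protein, had 315 and 321 RPM in nerve, 91.8, 85.6 and 97.1 RPM in control cells and 204, 281 and 248 RPM with cAMP, 2.67-fold higher (1.40 ± 0.13, adjusted p = 3.03e-08). Parental cells had 16.5 and 21.8 RPM and the clones 2 reads together, a ratio of 1430 (95% exact counting interval 394 to 11800). The unnamed TSS at 55 bp was not called with cAMP (0.16, adjusted p = 0.903), and the sides did not pass the test of a difference (−1.23 ± 0.59, adjusted p = 0.183). Cmtm5, a MARVEL-domain membrane protein, had 10.8, 9.77 and 11.9 against 10.8, 8.76 and 14.9 RPM with cAMP (0.05, adjusted p = 0.948), and went from 3.39 and 4.69 RPM in parental cells to 0 in all clones, at least 47.3-fold lower. Sirt2, a deacetylase abundant in myelinating glia, had 150, 116 and 135 against 178, 151 and 185 RPM with cAMP, where 1.28-fold (0.36 ± 0.13) just passed (adjusted p = 0.0476). This call, 1 of the 4 higher ones, was lost without control 2, control 3, cAMP 1 or cAMP 3 (adjusted p from 0.0996 to 0.217). Its partner Nfkbib, an NF-κB inhibitor 198 bp away, was not called (−0.15, adjusted p = 0.641). Their difference was 0.51 ± 0.27 (adjusted p = 0.21).

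The lipid synthesis list met the divergent loci at Mvk/Mmab alone (chr12:49711410-49711481 and chr12:49711726-49711793 on rn5). Mvk, mevalonate kinase of cholesterol synthesis, had 28.6, 33 and 32.2 RPM in control cells and 89.9, 79.4 and 91.7 RPM with cAMP, 2.78-fold higher without overlap (1.45 ± 0.18, adjusted p = 1.97e-06). Mmab, which makes adenosylcobalamin, had 2.89, 2.93 and 2.47 against 7.41, 1.32 and 1.53 RPM (−0.04 ± 0.58, adjusted p = 0.977). The difference of −1.48 ± 0.60 was not called (adjusted p = 0.118).

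Housekeeping lists, drawn up by gene symbol, held more loci. Over 6 such lists 25 of 100 tested leads (25%) were called with cAMP, against 23.8% of all TSSs. Of 30 mitochondrial leads at 28 loci, 6 were higher with cAMP and 0 lower by limma (20% called in all, where 12.9% of all TSSs were higher and 11% lower), with a median change of 0.1 against 0.02 over all TSSs. They were Slc25a32 (log2 fold change 2.55), Mrps18b of the mitochondrial ribosome (0.473), Atp5f1c of ATP synthase (0.285), Ndufb9 of complex I (0.263), the chaperonin Hspe1 (0.256) and Cox4i1 of cytochrome c oxidase (0.195). Hadhb, Hadha and Atad3a are also mitochondrial and not on this list. Of the 29 tested partners of its leads 2 were higher and 3 lower. Of 17 ribosomal and translation leads, 6 were higher and 3 lower with cAMP, 52.9% in all against 23.8% of all TSSs, with a median of 0.188 against 0.02. The lower leads were Yars (−0.963), a tyrosyl-tRNA synthetase, and the initiation factors Eif5b (−0.471) and Eif4g2 (−0.387). The higher leads included, beside Rps18 and Rpl18, Eif2b4 (0.716), Rps25 (0.415) and Rpl9 (0.36).

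Of 21 RNA processing leads 2 were higher with cAMP, Gtf2h1 of the transcription factor TFIIH (log2 fold change 2.01) and Hnrnpa2b1 (0.254), and 3 were lower, the splicing factor Sf3b4 (−1.07), the Mediator subunit Med19 (−0.634) and the RNA helicase Ddx5 (−0.441), which makes 23.8% called, the share over all TSSs. Of 20 ubiquitin, proteasome and chaperone leads Hspe1 was higher, and Hspb2, Dnajb11 (−0.686) and the proteasome subunit Psma2 (−0.285) were lower (20% called). Of 6 tested leads on the DNA repair and cell cycle list only Cdc42ep3 (−2.35) was called (16.7%, against 23.8% of all TSSs). It is an effector of the GTPase Cdc42 rather than a repair factor. Of 8 tested zinc finger leads only Klf6 (−1.08) was called (12.5%), and it was lower. In ΔSOX10 cells 8 of 99 tested leads of these lists were called (8.08%), against 8.21% of all TSSs. Gtf2h1 (−1.34), Idh3g (−0.683), a subunit of isocitrate dehydrogenase, Cdc42se1, Hspb2 and the F-box protein Fbxo36 (−2.51) were lower, and Yars (1.23), Klf6 (1.30) and Cdc42ep3 (1.97) were higher. Fbxo36 was tested through its parental libraries, as 1 clone alone was above 1 RPM. Of the 8, 5 were also called with cAMP, where 23.8% of all TSSs were called. How many of all TSSs called in ΔSOX10 cells were also called with cAMP was not counted. Yars, Klf6 and Cdc42ep3 were lower with cAMP, Gtf2h1 was higher and Hspb2 lower, so that Hspb2 alone changed in the same direction in both comparisons.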

How the data were processed

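Transcript 5′ ends were measured with Tn5Prime in 14 libraries. According to the submitters' processing notes and the study's methods, the authors trimmed reads with Cutadapt 1.14, mapped them to rn5 with STAR 2.5.2a, converted them with SAMtools 1.9, clustered 5′ ends with Paraclu, counted them with featureCounts (Subread 1.6.1) and deposited RPM per TSS and library. The table was limited to nerve TSSs within 1 kb of an H3K4me3 peak that overlaps a SOX10 peak. The deposited table also holds the authors' log2 fold changes and FDR-corrected p-values for both comparisons, made with edgeR 3.24.3, which were not used. TSSs were assigned to genes by the authors by distance and strand. Primary cell libraries were run on NovaSeq, the others on HiSeq instruments. Instrument and cell source therefore cannot be told apart, and nerve, primary cells and S16 cells were not tested against each other.

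Values of a library are multiples of what 1 read is worth, from which whole reads were recovered. A share of 93.1 to 100% of values per library came out whole (within 0.02 of a read), and up to 9.35% of values in a library, in the parental S16 libraries and clones 1-1 and 1-2, were rounded to 3 digits, so that reads recovered there are approximate. Of all reads, 28.7 to 37% lay in the table's TSSs. On recovered reads edgeR 4.0.16 (quasi-likelihood) called 95 members with cAMP and 26 in ΔSOX10 cells, and DESeq2 1.42.0 called 148 and 43.

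RPM is not a count, so the tests used limma 3.58.1 with a trend (R 4.3.3) on log2(RPM + 1). The cAMP comparison (against control) and the ΔSOX10 comparison (against parental) were each fitted on their 6 libraries without covariates. A TSS needed more than 1 RPM in at least 2 of these to be tested, and Benjamini-Hochberg adjusted p-values, over every TSS tested, were called under 0.05. The response of both sides of a locus was compared by limma on the plus minus minus difference of log2(RPM + 1) in each library, adjusted over the loci tested. Scripts used Python 3.11.15, pandas 2.3.3, numpy 2.4.6 and scipy 1.17.1, and were tested on simulated data. Promoter sequence came from RefSeq (GRCr8), by symbol.

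By the study's methods, each primary cell library came from its own population of cells. For parental S16 cells only separate RNA samples are stated, so that the spread between those libraries may be technical. Floors and counting intervals cover counting error only. The members, gene lists and tests were chosen with earlier results of these data known. Named loci were those with a gene of the myelin or lipid lists, the 5 per direction with both sides called or with the largest called difference between sides, opposite calls, and the extremes of level, ratio, gap and member number, with at least 10 RPM where a change was ranked. Alternatives were the pseudocount, the filter, TMM and median-ratio scaling, count tests, a minimum change, a shorter gap, overlapping pairs, sums over member TSSs, the replicate block and leaving out each replicate. Values of some genes that these rules name are not reported here.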

Additional observations from a re-analysis of the deposited data

Results flagged for a closer look

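In the 12 groups of 4 clones that were examined for named loci, 3 values stood apart from the other 3 clones by Dixon's test. Chance flags about 1 in 20 groups in general, but where the other 3 clones are at 0, as at all 3 values, any read is set apart, so that this rate does not apply. All 3 lay at loci of myelin and Schwann cell genes. Clone 1-2 had 0.0254 RPM at Mag and 0.02542 RPM at the unnamed TSS facing it, which is 1 read each. Clone 2-2 had 1.51 RPM at the unnamed TSS facing Cmtm5, where Cmtm5 itself was at 0.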

How the results depend on the processing

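With cAMP, the 127 called members became 62 with a log2 change of at least 1, 82 with gaps of at most 300 bp and 91 to 101 when single libraries were left out. The 6 loci called alike on both sides became 13 by DESeq2, 2 with a log2 change of at least 1, 3 with gaps of at most 300 bp and 4 to 5 without single libraries. The 2 opposite loci became 1 without the filter, by edgeR, with a log2 change of at least 1 or with the shorter gap, 4 by DESeq2, and 0 (without cAMP 1) to 2 without single libraries. The 29 loci whose sides differed became 15 with a pseudocount of 0.1, 16 with the shorter gap and 14 to 34 without single libraries.

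In S16 cells, the 27 called members became 43 by DESeq2, 13 with the shorter gap and 6 to 26 without single libraries. Their split of 7 higher and 20 lower became 15 and 16 after TMM or median-ratio scaling, 14 and 12 by edgeR and 24 and 19 by DESeq2. Loci called alike stayed at 0 without single libraries and were 1 by DESeq2. Opposite loci, 0 at first, were 1 with a pseudocount of 5, TMM or median-ratio scaling, edgeR or sums over member TSSs, 2 with a mean of at least 5 RPM, 3 by DESeq2 and up to 2 without clone 2-2. The 3 loci whose sides differed were 6 without the filter, 1 with the shorter gap and 1 to 3 without single libraries.

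The mean correlation of side levels, 0.0335, was −0.00135 with the shorter gap, 0.00236 with overlapping pairs added and 0.0292 to 0.0367 without single libraries. The median difference of side levels, 2.14 on the log2 scale, was 2.54 with a pseudocount of 0.1, 1.465 with 5, and 2.13 to 2.18 without single libraries. Of the named values, 1 reversed: the side difference of Vps52/Rps18 with cAMP, −0.15 and not called, was 0.81 (limma adjusted p = 0.00644) for sums over member TSSs, where another Vps52 TSS with means of 19.4 RPM in control cells and 18.2 RPM with cAMP outweighs the lead. Of 45 called cAMP values of named loci, 19 held under every alternative and 17 were lost without some library, and of 11 in S16 cells 6 held and 5 were lost. The cause of the other changes was not tested.

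Replicate numbers of control and cAMP libraries are not stated to pair the samples. Between deviations of same-numbered libraries r was 0.0294, 0.00751 and 0.0379, and of differently numbered ones from −0.05102 to 0.02134. Such small values from few libraries cannot settle whether the samples are paired. With the replicate number as a block, 63 members were higher and 70 lower, 8 loci were called alike and the sides differed at 16 loci. No paired analysis was possible for S16 cells because parental and ΔSOX10 libraries share no numbers. The side difference was not run with count tests. Depth limits TSSs below about 0.1 RPM, where 3 reads or fewer stand behind a value.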
